A study of Mus musculus with 6 samples.

Results

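Solute carriers, the membrane proteins whose mouse genes are named Slc followed by a number, were followed in primary microglia given FTY720 alone or FTY720 together with bacterial lipopolysaccharide (LPS). Members were the genes with such a name and at least 60 sense reads summed over the 6 libraries, with 13 names left out (Slc2a1, Slc2a3, Slc2a5, Slc2a6, Slc7a1, Slc7a2, Slc7a11, Slc11a1, Slc11a2, Slc16a1, Slc16a3, Slc39a14 and Slc40a1). Of 24411 gene rows, 373 carried an Slc name, 360 remained without the left-out names, and 161 reached the sum. Beyond their names, the members were chosen by 1 measured value, that sum over both groups, which takes no account of the direction of change. Just inside it were Slc17a9 with 68 reads, Slc2a13 with 65 and Slc35g1 with 63. Just outside it were Slc4a10 with 58 reads, Slc25a40 with 57, Slc14a1 with 55 and Slc45a3 with 48. Every member had at least 1 read in every library, and the sums ran from 63 to 9997 with a median of 385. Of the 161, 4 encode no transporter but carry the name through a neighbour, a partner or an ancestor: Slc2a4rg-ps, Slc4a1ap, Slc7a6os and Slc9a3r1.

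The cells were microglia, the resident macrophages of the brain, shaken off mixed glial cultures from the pooled brains of 12 ICR mice aged 3 days. By the labels more than 92% carried CD11b, so the cultures may have held a minority of other cells. One group of 3 libraries received FTY720 (fingolimod, a multiple sclerosis drug whose phosphorylated form binds receptors for the lipid sphingosine-1-phosphate) for 4 h at 1 µM, and the other group of 3 received the same FTY720 with LPS at 10 ng/ml for 4 h. Both groups carry FTY720, and no untreated or LPS-only library is analysed here, so the comparison shows what came with LPS in the presence of the drug. The labels call the libraries biological triplicates from independent RNA samples but do not say whether the cultures were separate. The p-values measure the spread between these libraries, which may be technical.

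Solute carriers move amino acids, sugars, ions, metals, vitamins and nucleotides across the plasma membrane and the membranes of organelles, either down a gradient or coupled to another solute. Several amino acid carriers work as a pair of a glycoprotein heavy chain and a transporting light chain. In macrophages, which microglia resemble, carriers of the endolysosome return the products of digestion to the cytosol, and some of them take part in nutrient sensing or in signalling by nucleic acid receptors.

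Sense reads on genes came to between 2431775 and 3454647 per library. Between 28.8% and 59.0% of these fell on 3 ribosomal-RNA-like rows. The members took 16243 to 25688 reads per library, which was 1.21% to 1.27% of the other gene reads in the FTY720 libraries and 1.21% in each of the libraries with LPS. Replicate 3 of FTY720 stood apart from its group: the chi-square of its counts per degree of freedom was 3.75 against replicate 1 and 4.73 against replicate 2, where those 2 differed by 1.34, and the LPS libraries differed by 1.30 to 2.09. All 12 microglial markers had reads, with summed levels of 2473 to 2687 CPM (reads per 1e6 gene reads, scaled by library factors from edgeR's trimmed mean of M-values, TMM) in the FTY720 libraries and 3780 to 4394 CPM with LPS, and 9 of 11 tested were higher and 1 lower. Tmem119 was nearly absent, with 8 reads over the FTY720 libraries and 11 over those with LPS. Among other cells, 5 of 6 tested oligodendrocyte-lineage markers were lower with LPS (summed level 268 to 293 against 142 to 163 CPM), as were 3 of 4 neuronal markers (188 to 252 against 109 to 119 CPM). Of 6 tested astrocyte markers 2 were higher and 1 lower (89.1 to 104 against 103 to 141 CPM). The lower one was Slc1a2, itself a member. Fibroblast and mural markers summed to 21.4 to 42.1 against 25.8 to 45.6 CPM, with Rgs5 at 0 and none of 4 called. Endothelial markers summed to 5.01 to 9.35 against 12.7 to 16.5 CPM. The part of these shifts in the results below was not tested, and in bulk RNA fewer cells of a type and less RNA per cell cannot be told apart.

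With LPS added, solute carriers went both ways in nearly equal numbers. Of 160 members tested, 32 were higher and 33 lower at an adjusted p below 0.05 in edgeR's quasi-likelihood test, with p-values adjusted by Benjamini-Hochberg over the 10124 genes tested. Slc17a9, the vesicular nucleotide transporter, did not pass the filter on low counts and was not tested (47 reads with FTY720, 21 with LPS added). Over all genes tested 46.0% were called, 23.3% higher and 22.7% lower, against 40.6% of the members, 20.0% higher and 20.6% lower. The members' share was thus near the background and is no result about the family as a whole. Changes of at least 2-fold were called in 13 members upward and 18 downward, or 8.13% and 11.3%, beside 8.49% and 9.59% of all genes. The 3 libraries of one group all lay above the 3 of the other for 87 members, 54.4%, and for 54.0% of all genes. Of the called members, 4 had groups that overlapped, Slc17a5, Slc19a2 and Slc35d1 among them. The 95 members not called had log2 fold changes between -0.79 and 0.92.

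The balance between higher and lower calls depended on the scaling of the libraries. With upper-quartile factors 26 members were higher and 47 lower (35.6% of calls higher, where TMM gave 49.2%), and with factors from library totals alone 13 were higher and 42 lower (23.6%). The median log2 fold change of all genes moved alike, from -0.04 with TMM to -0.17 and -0.35, and the members' median moved from -0.11 to -0.24 and -0.44. Library totals include the ribosomal-RNA-like rows, which took 28.8% to 59.0% of reads in the FTY720 libraries and 38.2% to 44.9% in those with LPS. Scaling by totals therefore also carries the amount of these reads, here and wherever it is used below. With those rows left out and TMM factors, 32 members were higher and 33 lower. Directions below are with TMM factors. Without FTY720 replicate 3, 38 members were higher and 38 lower.

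The direction also followed the level of expression, in the members as in all genes. Of 61 members with a mean below 4 on the log2 CPM scale, 4 were higher and 16 lower. Between 4 and 6 the counts were 17 and 15 of 72, and at 6 or above 11 and 2 of 27. All genes at those levels were higher in 10.8%, 22.5% and 55.2% and lower in 26.6%, 23.4% and 11.6%. With that trend over all genes removed, 29 members were higher and 39 lower.

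**Figure D1:**
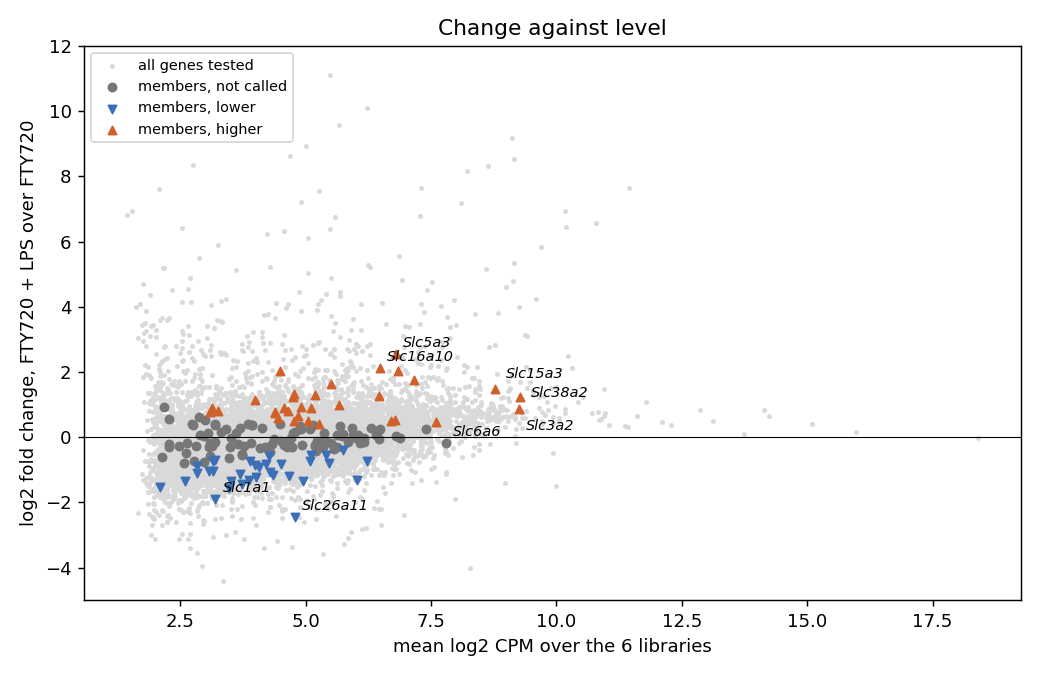
Log2 fold change (FTY720 plus LPS over FTY720) against mean log2 CPM over the 6 libraries, 1 point per gene tested; grey points are all genes and coloured points the members by call. Most members called higher lie to the right of most of those called lower, as for all genes.

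The abundant carriers were few. Of all reads on members, Slc38a2 took 8.51%, Slc3a2 8.48% and Slc15a3 5.90%, and the 10 most read members took 38.2%. Per kilobase of exon the highest levels with FTY720 were those of Slc3a2 at 123 CPM per kb, Slc25a5 at 98.2, Slc48a1 at 43.2 and Slc38a2 and Slc15a3 at 42.1 each. With LPS added the order was Slc3a2 at 224 CPM per kb, Slc25a5 at 136, Slc15a3 at 118 and Slc38a2 at 98.9. Between libraries of one group, log2 levels of the 160 tested members correlated at r of 0.955 to 0.978 over genes. For libraries of different groups r was 0.862 to 0.876. Genes are not independent replicates, and these values are descriptions.

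The 12 largest called rises ran from 2.34-fold to 5.86-fold, and the 12 largest called falls from 2.29-fold to 5.45-fold. All were picked among members with groups that did not overlap and a mean log2 CPM of at least 2, so their separation is no further result. At the top stood Slc5a3, a carrier of the osmolyte myo-inositol, followed by the amino acid carrier Slc16a10, the bicarbonate importer Slc4a7 and the glutamine carrier Slc1a5. At the bottom stood Slc26a11, an anion exchanger, and Slc1a1, a glutamate carrier of neurons and other cells.

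**Figure D2:**
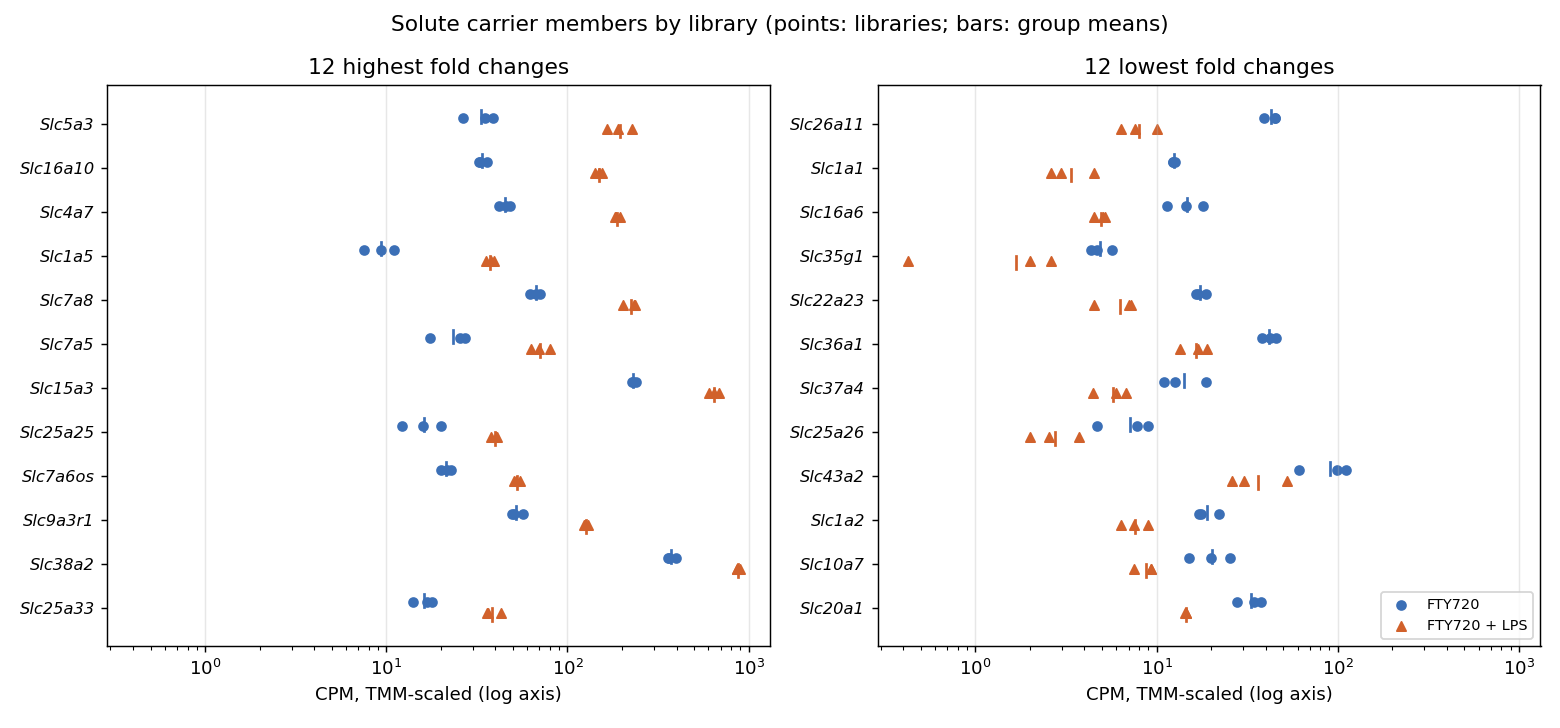
TMM-scaled CPM on a log axis for the 12 members with the highest and the 12 with the lowest called fold changes, 1 point per library (circles FTY720, triangles FTY720 plus LPS) and bars for group means. These 24 genes were picked among called members whose groups do not overlap, so their separation follows from the choice. Slc5a3 spans 26.4 to 39.0 against 166 to 228 CPM.

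Promoter windows in the RefSeq set (GRCm38.p6, 250 bases before and 50 after each start) were held for 124 of the 161 members. They were searched on both strands for motifs of factors known to act after LPS, amino acid shortage or cyclic AMP. The kappaB motif GGNNTTTCC was in 5.82% of all 32851 windows, in none of the 35 windows of members that rose, and in 1 of the 31 of members that fell, that of Slc37a4. The interferon-stimulated motif GAAANNGAA was in 8.56% of all windows, in 4 windows of members that rose, among them that of Slc7a8, and in 1 of those that fell, that of Slc38a9. AP-1 sites, TGANTCA, were in 7.81% of all windows, in none of members that rose and in 2 of those that fell. The amino acid response motif TGATGNAA was in 3.97% of all windows and in 2 windows of members that rose. Both were of Slc7a7, and they overlap and share a site. By gene this motif was in 4.17% of members that rose and in 4.51% of all genes. The cyclic AMP motif TGACGTCA was in 1.79% of all windows and in 1 of members that rose, that of Slc25a25. A match describes the letters and shows no binding, and no match says only that these letters are not in this window. The 250 bases before the start follow 5′ to 3′ for the member with the largest rise and for 4 members whose window held a match, which is in capitals.
Slc5a3, chr16:92058072-92058321, plus strand, no motif: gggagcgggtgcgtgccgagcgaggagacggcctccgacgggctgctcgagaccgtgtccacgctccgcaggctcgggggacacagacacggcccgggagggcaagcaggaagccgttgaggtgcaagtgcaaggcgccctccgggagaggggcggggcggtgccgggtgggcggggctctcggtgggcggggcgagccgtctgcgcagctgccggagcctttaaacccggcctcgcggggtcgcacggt
Slc7a8, chr14:54781887-54782136, minus strand, GAAANNGAA in capitals: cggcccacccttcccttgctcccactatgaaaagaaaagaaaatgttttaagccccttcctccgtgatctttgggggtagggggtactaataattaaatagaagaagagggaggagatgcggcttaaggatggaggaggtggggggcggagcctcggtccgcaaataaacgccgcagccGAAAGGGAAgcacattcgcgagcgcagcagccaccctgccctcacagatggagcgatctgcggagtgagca
Slc7a7, chr14:54417703-54417952, minus strand, TGATGNAA in capitals: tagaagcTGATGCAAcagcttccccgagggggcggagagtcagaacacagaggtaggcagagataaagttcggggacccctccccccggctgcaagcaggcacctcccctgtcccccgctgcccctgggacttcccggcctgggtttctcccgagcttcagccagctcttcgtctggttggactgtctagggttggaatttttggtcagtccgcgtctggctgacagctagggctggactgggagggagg
Slc25a25, chr2:32424067-32424316, minus strand, TGACGTCA in capitals: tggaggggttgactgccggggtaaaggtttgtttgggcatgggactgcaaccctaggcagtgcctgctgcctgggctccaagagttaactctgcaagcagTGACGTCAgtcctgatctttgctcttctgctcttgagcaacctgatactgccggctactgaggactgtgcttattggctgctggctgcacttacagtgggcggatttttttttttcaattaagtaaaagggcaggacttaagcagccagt
Slc37a4, chr9:44396696-44396945, plus strand, GGNNTTTCC in capitals: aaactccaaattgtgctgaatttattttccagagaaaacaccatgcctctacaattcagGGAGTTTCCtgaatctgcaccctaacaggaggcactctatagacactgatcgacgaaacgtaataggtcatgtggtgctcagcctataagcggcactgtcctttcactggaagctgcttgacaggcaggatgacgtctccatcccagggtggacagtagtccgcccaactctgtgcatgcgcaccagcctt

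Plasma membrane amino acid carriers included 5 of the 12 largest rises. Of 16 members grouped as amino acid carriers, 7 rose, 4 fell and 5 were not called, with a median log2 fold change of 0.35. Some carriers of amino acids were counted in other groups, among them Slc36a1 and Slc38a9, which fell, and Slc15a3, which rose. Of the 16, 43.8% were thus higher and 25% lower, beside 23.3% and 22.7% of all genes, and no difference from all genes was tested. Their median log2 CPM was 5.49, where that of all genes was 4.38. Scaling by library totals alone left 5 higher and 4 lower, as did removing the trend over expression level. The share of the 16 in all reads on members, a ratio within each library, was 21.1% to 22.8% with FTY720 and 30.1% to 30.9% with LPS added. Much of it was Slc38a2 and Slc3a2, which together took 17.0% of reads on members over all libraries. Slc3a2 alone averaged 433 and then 792 CPM, of 1276 to 1370 and then 2349 to 2514 CPM for the group. Neither gene was called with the trend over expression level removed. Slc16a10 (TAT1, a carrier of aromatic amino acids; chr10:40033532-40142258, minus strand, GRCm38) stood at 33.0, 32.4 and 36.0 CPM in the FTY720 libraries and at 141, 156 and 150 CPM with LPS added. All libraries with LPS lay far above all without it, a log2 fold change of 2.13 ± 0.13 (SE, adjusted p = 2.42e-12). Slc1a5 (ASCT2, which exchanges glutamine and other neutral amino acids; chr7:16781340-16798274) stood at 9.34, 11.0 and 7.53 CPM and then at 37.7, 35.5 and 39.0 CPM. The groups were again apart, with a log2 fold change of 2.02 ± 0.20 (SE, adjusted p = 1.43e-08). Its relative Slc1a4 (ASCT1, a carrier of serine and alanine) was not called, at 26.1 ± 2.57 and 32.9 ± 3.56 CPM (mean ± SD, n = 3 each, adjusted p = 0.104).

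Slc38a2 (SNAT2, a sodium-coupled importer of small neutral amino acids; chr15:96687392-96699730) was the most read member. Its levels were 361, 360 and 396 CPM with FTY720 and 865, 897 and 860 CPM with LPS added. The rise was 2.35-fold (log2 1.23 ± 0.10, adjusted p = 7.49e-10), and with the trend over expression level removed it was 0.23 on the log2 scale (adjusted p = 0.0745). The related Slc38a1 (SNAT1) was not called, at 38.6 ± 3.20 and 33.0 ± 7.10 CPM (mean ± SD, n = 3 each, adjusted p = 0.271). Slc43a2 (LAT4, which lets branched-chain amino acids and phenylalanine pass) fell, from 98.8, 111 and 61.4 CPM to 30.2, 26.2 and 52.6 CPM. Replicate 3 of each group lay closest to the other group, and the log2 fold change was -1.33 ± 0.21 (adjusted p = 2.63e-05). The other members of the group that fell were Slc7a6 and, named after their values were seen, Slc36a4 (log2 fold change -1.05 ± 0.32, adjusted p = 0.0111) and Slc38a7, a lysosomal glutamine exporter (-0.78 ± 0.16, adjusted p = 0.000301). The call of Slc36a4 was lost without FTY720 replicate 2, LPS replicate 1 or LPS replicate 3, where adjusted p was 0.0919, 0.0669 and 0.0626.

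The heavy chain Slc3a2 (4F2hc, or CD98; chr19:8706882-8723369, minus strand) and 3 of its 4 measured light chains rose, while the other light chain fell. Slc3a2 stood at 432, 454 and 412 CPM with FTY720 and at 771, 788 and 817 CPM with LPS added, a 1.83-fold rise (log2 0.87 ± 0.10, adjusted p = 2.01e-07). This call ended with total library size (0.56, adjusted p = 0.126), and with the trend over expression level removed its sign turned (-0.13, adjusted p = 0.316). Slc7a8 (LAT2, an exchanger of neutral amino acids; chr14:54722209-54781946) stood at 67.4, 70.4 and 62.2 CPM and then at 201, 236 and 233 CPM (log2 1.75 ± 0.12, adjusted p = 2.85e-11). Slc7a5 (LAT1, the exchanger that brings in leucine and other large neutral amino acids; chr8:121881150-121907694) stood at 27.0, 25.4 and 17.4 CPM and then at 62.7, 69.8 and 79.6 CPM (log2 1.62 ± 0.17, adjusted p = 4.44e-08). For both, every library with LPS lay above every library without it.

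The remaining light chains, which exchange cationic for neutral amino acids, went apart. Slc7a7 (y+LAT1) stood at 13.7, 13.4 and 18.1 CPM and with LPS added at 26.5, 24.5 and 28.0 CPM (log2 0.78 ± 0.19, adjusted p = 0.00213), and was not called with total library size (0.45, adjusted p = 0.259). Slc7a6 (y+LAT2; chr8:106168857-106198706) stood at 24.4, 30.7 and 23.5 CPM and then at 11.2, 11.8 and 12.0 CPM (log2 -1.16 ± 0.20, adjusted p = 7.67e-05). Neither pair of groups overlapped. The left-out light chain Slc7a11 is no member and is not counted here.

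Per kilobase of exon, which allows levels to be compared between genes, the 4 light chains summed to 30.2, 31.7 and 27.7 CPM per kb with FTY720 and to 67.6, 76.0 and 79.1 CPM per kb with LPS added. The heavy chain was 4.05, 4.06 and 4.21 times that sum in the FTY720 libraries and 3.23, 2.94 and 2.93 times in those with LPS. Slc7a8 made up 44.6%, 44.4% and 44.8% of the light chain sum and then 59.5%, 62.1% and 58.8%. These ratios are taken within a library, so the scaling between libraries does not enter them, and in both the groups do not overlap. The mean level of Slc7a6 went from 5.73 to 2.56 CPM per kb, the only one of the light chains to go down, and with LPS added it was the lowest of the 4.

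**Figure D3:**
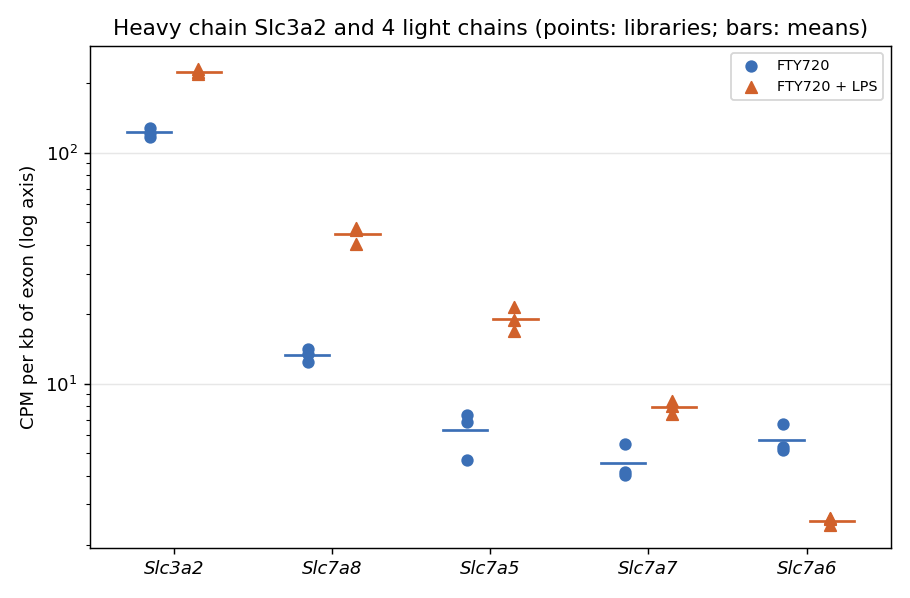
CPM per kilobase of exon on a log axis for the heavy chain Slc3a2 and the light chains Slc7a8, Slc7a5, Slc7a7 and Slc7a6, 1 point per library and bars for group means. Slc3a2 lies above each light chain in both groups, and Slc7a6 goes from a mean of 5.73 to 2.56 while Slc7a8 goes from 13.3 to 44.6.

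Slc5a3 had the largest rise of all members, in a group where few others were called. It encodes SMIT1, which takes up myo-inositol with sodium, and lies at chr16:92058322-92087473, plus strand. Its levels were 39.0, 35.1 and 26.4 CPM with FTY720 and 166, 191 and 228 CPM with LPS added. The lowest library with LPS was thus well above the highest without it, and the log2 fold change was 2.55 ± 0.15 (adjusted p = 2.35e-12). Of its 10913 bases of exon, 159 are shared with Mrps6 on the same strand. All genes were higher in 23.3% and lower in 22.7%, and no difference of this group from them was tested. The other carriers of sugars and monocarboxylates were 3 that fell and 8 that were not called (median of the 12, -0.24 on the log2 scale). Scaling by library totals alone left 1 of the group higher and 5 lower.

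Of those that fell, Slc16a6 (MCT7, of the monocarboxylate transporter family) went from 18, 11.4 and 14.6 to 5.22, 5.08 and 4.51 CPM (log2 fold change -1.55 ± 0.28, adjusted p = 0.0001). Amz2, on the other strand, overlaps 21.54% of its exons. Slc37a4, which carries glucose 6-phosphate into the endoplasmic reticulum for glucose release, went from 11.0, 12.7 and 18.8 to 4.48, 6.77 and 6.01 CPM (-1.34 ± 0.29, adjusted p = 0.000682). Both genes were separated between groups, though on few reads. The last, Slc45a4, was named after its values were seen and lay close to the threshold (-0.70 ± 0.28, adjusted p = 0.0498). Its call was lost in 8 alternatives, with adjusted p up to 0.221 when LPS replicate 2 was left out and also without LPS replicate 3 (0.146) or FTY720 replicate 1 or 2 (0.105 and 0.116). Slc37a2, a sugar phosphate carrier of macrophages and the most highly expressed of the group per kilobase, was not called, at 119, 97.5 and 112 CPM and then 94.7, 117 and 124 CPM (adjusted p = 0.891). With the trend over expression level removed Slc37a2 was called lower (-0.41, adjusted p = 0.0143).

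Among 9 tested carriers of endosomes and lysosomes, 1 gene rose and 4 fell. All genes were higher in 23.3% and lower in 22.7%, and no difference from them was tested. Slc15a3 (PHT2, which exports histidine and small peptides from the endolysosome; chr19:10839727-10859362, plus strand) stood at 229, 238 and 226 CPM with FTY720 and at 683, 646 and 608 CPM with LPS added. Each library with LPS held more than any without, with a log2 fold change of 1.48 ± 0.10 (adjusted p = 3.89e-11). With the trend over expression level removed it was 0.58 (adjusted p = 7.92e-05). Tmem132a lies over 28.06% of its exons on the other strand, so its sense reads count Slc15a3 alone only as far as the strand was kept. Its relative Slc15a4 (PHT1, which also takes part in signalling by endosomal Toll-like receptors) was not called, at 43.7, 39.7 and 42.1 CPM and then 31.3, 40.6 and 41.6 CPM (log2 -0.16 ± 0.15, adjusted p = 0.428).

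Slc36a1 (PAT1, a proton-coupled exporter of amino acids; chr11:55204350-55236330) fell from 45.4, 42.1 and 38.4 CPM to 13.4, 16.9 and 19.0 CPM. The groups were well apart, and the log2 fold change was -1.36 ± 0.18 (adjusted p = 1.77e-06). Slc38a9, a lysosomal arginine sensor and amino acid exporter upstream of mTORC1 (chr13:112660751-112738749), fell from 25.4, 27.0 and 21.7 CPM to 12.3, 11.4 and 11.0 CPM (-1.07 ± 0.20, adjusted p = 0.000169). Slc29a3 (ENT3, a lysosomal nucleoside carrier) fell from 29.0, 35.7 and 19.1 CPM to 14.9, 16.5 and 15.5 CPM (-0.81 ± 0.22, adjusted p = 0.00483). Slc17a5 (sialin, the exporter of sialic acid) was called lower, although LPS replicate 3 at 44.6 CPM lay within the FTY720 range of 43.3 to 56.1 CPM (-0.55 ± 0.18, adjusted p = 0.0142). Without FTY720 replicate 2 its adjusted p was 0.0672, without LPS replicate 1 it was 0.139, and without LPS replicate 2 it was 0.104.

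The heme carrier Slc48a1 (HRG1) was among the highest per kilobase and was not called, at 116, 120 and 121 CPM and then 104, 112 and 133 CPM (log2 -0.03 ± 0.12, adjusted p = 0.843), and with the trend over expression level removed it was called lower (-0.49, adjusted p = 0.00237). Slc46a3 was not called either, at 7.41 and 4.64 CPM on average (-0.73 ± 0.37, adjusted p = 0.111), and was called with total library size (-1.05, adjusted p = 0.031). Of the 9 tested carriers of this group the median log2 fold change was -0.55, with 1 higher and 4 lower, and 1 and 5 with total library size. The group's share of reads on members was nevertheless 8.86% to 9.69% with FTY720 and 11.0% to 11.6% with LPS added, where Slc15a3 alone stood at 608 to 683 CPM of the group's 898 to 905 CPM.

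Carriers of ions, bicarbonate and phosphate held one of the largest rises and the largest fall. Slc4a7 (NBCn1, which brings in sodium and bicarbonate and so counters acid; chr14:14702279-14799940) stood at 45.7, 41.7 and 48.0 CPM with FTY720 and at 185, 183 and 194 CPM with LPS added. The libraries of each group lay close together and the groups far apart, with a log2 fold change of 2.04 ± 0.12 (adjusted p = 2.03e-12). Slc26a11, an exchanger of sulfate, chloride and other anions (chr11:119355557-119381079), stood at 45.1, 45.1 and 39.1 CPM and then at 6.34, 7.62 and 10.0 CPM. Each library with LPS was far below each without, with a log2 fold change of -2.45 ± 0.21 (adjusted p = 1.24e-09). Slc20a1 (PiT1, the sodium-phosphate importer) fell from 34.7, 37.7 and 27.8 CPM to 14.5, 14.4 and 14.5 CPM (-1.19 ± 0.19, adjusted p = 2.34e-05).

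Of the 21 genes in this group 3 rose, 5 fell and 13 were not called, with a median log2 fold change of 0.16. Scaling by library totals alone left 1 higher and 5 lower. All genes were higher in 23.3% and lower in 22.7% with TMM factors, and no difference from them was tested. Slc26a2, a sulfate carrier named after its values were seen, also rose (0.89 ± 0.16, adjusted p = 7.12e-05) and was not called with total library size (0.58, adjusted p = 0.11). Among those that fell was Slc8b1 (NCLX, the mitochondrial exchanger of sodium for calcium), at 41.1 ± 0.517 and 24.6 ± 5.48 CPM (mean ± SD, n = 3 each; log2 fold change -0.74 ± 0.17, adjusted p = 0.00121). Slc12a9, named after its values were seen, fell by 0.91 on the log2 scale (SE 0.22, adjusted p = 0.00181). The importer of sodium, potassium and chloride Slc12a2 (NKCC1) was not called (0.29 ± 0.13, adjusted p = 0.0797). Slc9a9 (NHE9, of endosomes) was not called in all libraries (0.33 ± 0.16, adjusted p = 0.0974) and was called without FTY720 replicate 3 (0.45, adjusted p = 0.0108) or without LPS replicate 1 (0.52, adjusted p = 0.0229).

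Carriers that clear glutamate and other transmitters were lower or not called, apart from the creatine carrier Slc6a8. All genes were higher in 23.3% and lower in 22.7%, and no difference from them was tested. Of the 6 carriers here, 3 fell, 1 rose and 2 were not called, with a median log2 fold change of -0.74. With total library size none of the 6 was higher and 4 were lower. Of those that fell, Slc1a1 (EAAT3; chr19:28835049-28913960) stood at 12.3, 12.7 and 12.2 CPM with FTY720 and at 2.61, 2.96 and 4.51 CPM with LPS added, from 127 and 23 reads in all. The groups did not overlap, and the log2 fold change was -1.91 ± 0.31 (adjusted p = 2.46e-05). A gene on the other strand, 4430402I18Rik, lies over 31.86% of its exons. Slc1a2 (GLT-1, the main glutamate carrier of astrocytes; chr2:102658659-102790784) stood at 17.7, 22.0 and 17.2 CPM and then at 8.95, 6.35 and 7.51 CPM (-1.30 ± 0.24, adjusted p = 0.000121). From counts of both strands together its log2 fold change was -0.55 (adjusted p = 0.0375). Slc1a2 is itself on the astrocyte marker list, as the only marker there that was called lower. The list's summed level was 89.1 to 104 CPM with FTY720 and 103 to 141 CPM with LPS added. The source of Slc1a2 among the cells was not tested.

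Slc1a3 (GLAST, likewise of astrocytes) was not called at 9.01, 13 and 4.94 CPM and then 5.59, 5.50 and 4.00 CPM (-0.77 ± 0.35, adjusted p = 0.0808). It was called lower without FTY720 replicate 3 (-1.10, adjusted p = 0.00395), and with all libraries kept it was called lower with upper-quartile factors (-0.90, adjusted p = 0.0411) and with total library size (-1.02, adjusted p = 0.0287). The taurine carrier Slc6a6, the most highly expressed of this group, was not called either, at 250, 287 and 176 CPM and then 192, 202 and 229 CPM (-0.19 ± 0.14, adjusted p = 0.271), and was called lower without FTY720 replicate 3 (-0.37, adjusted p = 0.000578) or, with all libraries, once the trend over expression level was removed (-0.88, adjusted p = 2.31e-05). Slc6a8, named after its values were seen, rose (0.49 ± 0.18, adjusted p = 0.0298). It lost its call without FTY720 replicate 3 (0.119) or LPS replicate 1, 2 or 3 (0.0651, 0.0641 and 0.0669), and with total library size and upper-quartile factors its adjusted p was 0.604 and 0.109.

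Of 20 carriers of zinc, copper and magnesium, 7 rose, 1 fell and 12 were not called (median log2 fold change 0.26), beside 23.3% higher and 22.7% lower over all genes, and no difference from all genes was tested. With total library size 1 was higher and 1 lower. Slc41a2, a magnesium carrier, had the largest rise, from 9.81 ± 1.37 to 21.9 ± 2.48 CPM (mean ± SD, n = 3 each; log2 1.14 ± 0.21, adjusted p = 0.000151). Slc39a6 (ZIP6, a zinc importer) stood at 37.7, 37.1 and 29.0 CPM and then at 64.2, 71.1 and 67.1 CPM. Its groups were apart (0.97 ± 0.15, adjusted p = 9.87e-06), and with total library size its adjusted p was 0.0556. Slc39a8 (ZIP8, which imports zinc and manganese; named after its values were seen) rose by 0.90 ± 0.21 (adjusted p = 0.00141; 0.148 with total library size).

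Slc31a1 (CTR1, the copper importer) went from 90.6 ± 15.9 to 131 ± 4.56 CPM (0.52 ± 0.13, adjusted p = 0.00227), and its call ended with total library size (0.16, adjusted p = 0.696) and with the trend over expression level removed (0.09, adjusted p = 0.606). The related Slc31a2 was not called (0.13 ± 0.18, adjusted p = 0.56). Slc30a1 (ZnT1, which exports zinc from the cell) went from 32.5 ± 2.72 to 43.5 ± 1.91 CPM (0.42 ± 0.15, adjusted p = 0.0261), a call lost in 8 alternatives. With total library size it was 0.10 (adjusted p = 0.826), with upper-quartile factors 0.29 (0.117) and with the trend over expression level removed 0.32 (0.0875). DESeq2 gave an adjusted p of 0.0647, and leaving out FTY720 replicate 1 or LPS replicate 2 gave 0.115 and 0.0878. Slc39a1 (ZIP1), the highest of the group per kilobase, was not called, at 81.3 ± 4.43 and 97.6 ± 1.19 CPM (0.26 ± 0.12, adjusted p = 0.0764), and without FTY720 replicate 3 it was (0.31, adjusted p = 0.0153). The single member that fell was Slc39a3 (ZIP3, named after its values were seen; -0.59 ± 0.20, adjusted p = 0.0184). Its adjusted p was 0.0603, 0.0905 and 0.0674 without FTY720 replicate 2, LPS replicate 2 or LPS replicate 3.

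The Slc25 family, mainly mitochondrial carriers, was the largest group. Slc8b1, also mitochondrial, was counted among the carriers of ions. The 32 were evenly split, 6 higher, 6 lower and 20 not called, beside 23.3% higher and 22.7% lower over all genes. Their median log2 fold change was -0.19. With total library size 2 were higher and 7 lower. The largest rise was that of Slc25a25, a carrier that exchanges ATP-magnesium for phosphate (chr2:32414487-32451445), from 20.0, 16.0 and 12.2 CPM to 41.0, 37.7 and 40.6 CPM. Its groups lay apart, with a log2 fold change of 1.33 ± 0.19 (adjusted p = 4.39e-06). A relative with the same cargo, Slc25a23, fell (-0.84 ± 0.20, adjusted p = 0.00202), and another, Slc25a24, was not called (-0.27 ± 0.26, adjusted p = 0.415). Both were named after their values were seen. Slc25a33, a pyrimidine nucleotide carrier, rose from 16.7, 14.0 and 17.9 CPM to 36.2, 36.0 and 43.1 CPM (1.23 ± 0.18, adjusted p = 5.82e-06).

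Slc25a5 (ANT2, which exchanges ADP for ATP) was the most abundant carrier of the group and the second highest member per kilobase. It stood at 146, 149 and 191 CPM and then at 231, 210 and 229 CPM, so FTY720 replicate 3 lay nearest the LPS libraries. The rise was 1.38-fold (log2 0.46 ± 0.12, adjusted p = 0.00297), and it ended with total library size (0.11, adjusted p = 0.80) and turned sign with the trend over expression level removed (-0.18, adjusted p = 0.241). Slc25a26, which brings S-adenosylmethionine into mitochondria, fell from 9.01, 4.67 and 7.77 CPM to 3.73, 2.54 and 2.00 CPM (-1.33 ± 0.38, adjusted p = 0.0059). Slc25a37 (mitoferrin-1, the mitochondrial iron importer) fell from 18.4, 24.7 and 14.6 CPM to 8.95, 10.6 and 12.0 CPM (-0.86 ± 0.24, adjusted p = 0.00593), and was not called without FTY720 replicate 2 (0.0531) or LPS replicate 1 (0.0527). The whole group held 17.2% to 19.5% of the reads on members with FTY720 and 14.2% to 15.4% with LPS added. Its summed level was 1035 to 1177 CPM with FTY720 and 1127 to 1213 CPM with LPS added. The lower share is thus no fall of the group's own level with TMM factors.

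The nucleotide sugar family Slc35, which mainly supplies the Golgi apparatus and endoplasmic reticulum, also went both ways. All genes were higher in 23.3% and lower in 22.7%, and no difference from them was tested. Of the 21 family members, 3 rose, 4 fell and 14 were not called, with a median log2 fold change of -0.20, and the calls depended on the fit. With total library size none was higher and 7 were lower, with upper-quartile factors 2 and 8, and with DESeq2, as without LPS replicate 2, 2 were higher and none lower. Slc35g1 had the largest fall, at 4.34, 4.67 and 5.65 CPM and then 2.61, 0.423 and 2.00 CPM (-1.52 ± 0.45, adjusted p = 0.00877). It rests on 51 and 12 reads, and the adjusted p was 0.0829 without LPS replicate 2 and 0.0519 with DESeq2. Slc35f1 also fell (-0.89 ± 0.33, adjusted p = 0.0306), a call lost without LPS replicate 2 (adjusted p = 0.162), LPS replicate 1 (0.137) or FTY720 replicate 2 (0.0761) and with DESeq2 (0.118). Slc35b1, the ATP importer of the endoplasmic reticulum and the highest of the family per kilobase, was not called (0.26 ± 0.16, adjusted p = 0.178). The members that rose were named after their values were seen: Slc35e4, Slc35b3 and Slc35d1, by 0.80, 0.73 and 0.82 on the log2 scale (adjusted p = 0.00207, 0.00342 and 0.0403). None of them was called with total library size (adjusted p = 0.202, 0.289 and 0.287). Slc35d1, whose groups overlapped, also lost its call without FTY720 replicate 1 (0.0994), LPS replicate 2 (0.111) or LPS replicate 3 (0.284).

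Among 15 carriers of nucleosides, vitamins and organic ions 1 rose, 3 fell and 11 were not called (median log2 fold change -0.03). With total library size none was higher and 4 were lower. All genes were higher in 23.3% and lower in 22.7% with TMM factors, and no difference from them was tested. Slc22a23, of the organic ion transporter family, fell from 17.0, 18.7 and 16.5 CPM to 7.09, 7.19 and 4.51 CPM (-1.44 ± 0.25, adjusted p = 6.32e-05). Slc10a7, of the bile acid transporter family, fell from 20.0, 15.0 and 25.4 CPM to 9.32, 9.31 and 7.51 CPM (-1.21 ± 0.24, adjusted p = 0.000316). In both, all libraries with LPS lay below all without. The vitamin C carrier Slc23a2, the highest of the group per kilobase, was not called (0.23 ± 0.12, adjusted p = 0.128), and without FTY720 replicate 3 it was (0.30, adjusted p = 0.0208). Named after their values were seen, the proton-coupled folate carrier Slc46a1 fell (-1.04 ± 0.33, adjusted p = 0.014) and the thiamine carrier Slc19a2 rose with overlapping groups (0.89 ± 0.33, adjusted p = 0.0298). Slc46a1 lost its call without FTY720 replicate 1 or 2 (0.0605 and 0.057) or LPS replicate 1 (0.0973). Slc19a2 lost its call without FTY720 replicate 1 or 3 (0.0591 and 0.141) or LPS replicate 2 or 3 (0.117 and 0.0689), with DESeq2 (0.0742), with upper-quartile factors (0.0626) and with total library size (0.175). None of the 4 carriers of fatty acids and choline was called by edgeR with TMM or by DESeq2, 1 had an unadjusted p below 0.05 in edgeR, and with upper-quartile factors 1 was lower. The choline carrier Slc44a1 stood closest to the threshold (0.29 ± 0.13, adjusted p = 0.078; 0.41, adjusted p = 0.00296, without FTY720 replicate 3).

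Of the 4 members that encode no transporter, both with a large change rose. Slc9a3r1 (NHERF1, a scaffold that tethers membrane proteins to the actin cortex; chr11:115163341-115181181) stood at 49.4, 50.7 and 56.5 CPM and then at 124, 130 and 124 CPM. Slc7a6os, named for its position beside Slc7a6 on the opposite strand (chr8:106200717-106210935, minus strand), stood at 22.7, 21.7 and 20.0 CPM and then at 50.4, 55.0 and 52.1 CPM. The groups of each were far apart, with log2 fold changes of 1.26 ± 0.12 (adjusted p = 1.42e-08) and 1.29 ± 0.15 (adjusted p = 3.68e-07). The neighbours Slc7a6os and Slc7a6 thus moved in opposite directions. Without these 4 genes, 30 of 156 tested transporters were higher and 33 lower.

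**Figure D4:**
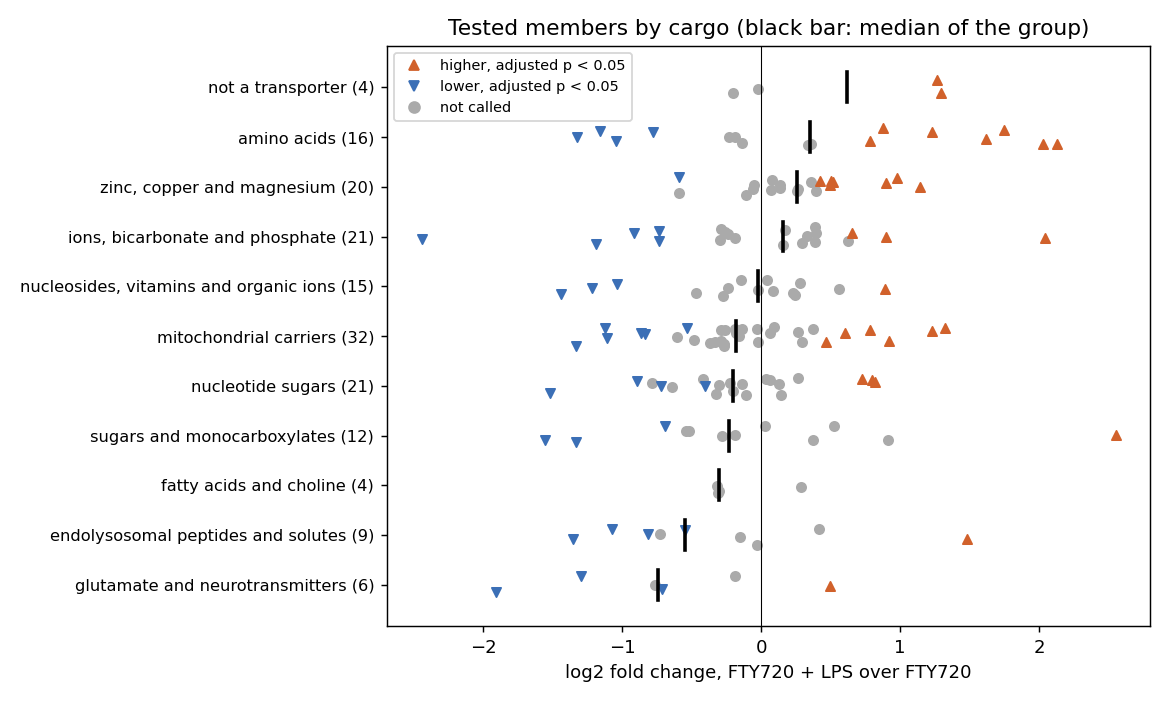
Log2 fold change (FTY720 plus LPS over FTY720) of the 160 tested members by cargo, 1 point per gene, with the number tested in brackets, colour for the call and a black bar for the median. Medians run from -0.74 for glutamate and neurotransmitters to 0.35 for amino acids among the transporters.

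Other transporters in the same libraries also went both ways. Of 26 ATP-binding cassette genes tested 4 were higher and 6 lower (median -0.17 on the log2 scale), and of 21 transporters with other symbols 5 were higher and 4 lower. Of 12 left-out solute carriers that reached the same read sum, 6 were higher and 2 lower with a median of 0.53. Those names were set aside by the choice of members, so the members do not describe the whole family, and no difference between these lists was tested.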

How the data were processed

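The 6 RNA-seq libraries of primary mouse microglia comprised 3 with FTY720 and 3 with FTY720 and LPS. Per the labels' protocols, total RNA was freed of ribosomal RNA and reverse transcribed from random primers with a directional kit. STAR 2.5.1, Trimmomatic 0.33, CASAVA 1.8.2 and DESeq2 are listed with the build mm10 in the submitters' processing notes, and no source used here gives the annotation. The deposited values are raw read counts per gene for both strands together and for each strand, in the layout STAR writes. The column in which 98.4% to 98.9% of the stranded reads on genes fell was taken as sense. Rows naming no gene held 74.5% to 79.2% of reads (unmapped reads 24.4% to 27.0%) and entered neither library sizes nor tests. Random priming from whole transcripts means that long genes draw more reads, so levels were compared between genes only per kilobase of merged exon (GENCODE M21).

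The sense counts went into edgeR 4.0.16 under R 4.3.3 (quasi-likelihood test, TMM factors, default expression filter with a minimum count of 10, Benjamini-Hochberg over 10124 genes, threshold 0.05). SE is that of the log2 fold change, derived from the F statistic. A count of 3 reads corresponded to 0.706 to 1.50 CPM. Alternatives were DESeq2 1.42.0, upper-quartile and total-size factors, other filters, counts from both strands, ribosomal-RNA-like rows left out, the trend of fold change with expression level removed (loess, span 0.5), a replicate block, and each library left out. The scripts were tested on simulated data. Members and lists were chosen with earlier results of these data known. Named members were the 12 highest and 12 lowest called log2 fold changes with groups apart and a mean log2 CPM of at least 2, per cargo group the 2 largest called changes and the highest level per kilobase, and a list of carriers of known roles. Others were named after their values were seen and are marked so. Some called members are counted but not reported here by name.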

Additional observations from a re-analysis of the deposited data

Results flagged for a closer look

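Reads on the strand opposite to 2 members were higher with LPS added than with FTY720 alone, in a measure the comparisons did not use. Opposite to Slc1a2 there were 3 reads over the FTY720 libraries and 39 over those with LPS, 0.301 ± 0.0568 and 5.70 ± 1.71 CPM (mean ± SD, n = 3 each), while its sense reads fell. An annotated antisense gene, Gm13872, overlaps 189 bases, 1.44% of the exons of Slc1a2. Opposite to Slc39a13, a zinc carrier that was not called, there were 7 and 15 reads, 0.713 ± 0.268 and 2.15 ± 0.746 CPM. Psmc3 overlaps 215 bases, 4.42% of its exons, on that strand. The members were screened for such reads only where at least 10% of their reads were opposite, and neither difference was tested.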

How the results depend on the processing

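Of the 65 called members, 32 were called in every alternative that tested them and 2 changed sign in any. Total library size took the call from 19, the removed trend from 14 and DESeq2 from 14. The number of members higher was 13 with total library size instead of 32, and the number of all genes higher 766 instead of 2362. DESeq2 called 1529 genes lower instead of 2297. With the trend over expression level removed the direction turned for the called members Slc25a5 (-0.18) and Slc3a2 (-0.13), and Slc37a2 (-0.41) and Slc25a3 (-0.33, from 0.26, adjusted p = 0.0242) became called lower, since this alternative subtracts the rise of abundant genes. Slc25a3, the mitochondrial phosphate carrier, was named after its values were seen. Slc39a1, Slc23a2 and Slc44a1, not called in either fit, turned from 0.26, 0.23 and 0.29 to -0.08, -0.11 and -0.01, and with total library size to -0.07, -0.11 and -0.05. Upper-quartile factors called 1885 genes higher and 2969 lower (38.8% of calls higher), and total size 2688 lower (22.2%). Leaving out 1 library at a time gave 27 to 38 members higher and 24 to 38 lower. The replicate block gave 32 members higher and 34 lower. Libraries with the same number did not deviate together (correlations of -0.02, -0.03 and -0.07 between deviations from the group means). With 3 libraries per group these correlations cannot show whether same-numbered libraries share a culture. Depth limits what can be seen in members with few reads: of the 61 members with a mean log2 CPM below 4, 41 were not called, which does not show that they did not differ.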

Other observations

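Of the 161 members, 144 had fewer than 5% of their stranded reads on the opposite strand and 7 had at least 10%. Slc24a5 had 55.9% there, with Myef2 annotated over 39.53% of its exons, so its reads without regard to strand would largely describe its neighbour. Slc5a6, the carrier of biotin and pantothenate, had 34.8% and Slc16a6 had 17.0%.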
